A study of Mus musculus with 3 samples.

Results

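The data cover 51 positions that the authors' table of receptor promoters lists as unannotated olfactory receptor pseudogenes, each with a chromosome, a promoter position and a strand. They were chosen by name alone, as every entry whose name begins with Olfr-pseudo_unannotated, and they make up 51 of the 1085 named positions. The other 1034 carry receptor gene names. The study amplified the capped 5′ ends of receptor transcripts from mouse olfactory epithelium by RLM-RACE, with degenerate primers against receptor coding sequences for reverse transcription, and hybridised the products to tiling arrays. Stringent, with 1 array, received a product of nested PCR, and High Coverage, with 2 arrays, received products of PCR without nesting. Every sample came from C57/Bl6 adults aged 6 to 8 weeks and pooled the epithelia of 5 mice, so differences between animals cannot be seen. The file headers name a female input for High Coverage 1 and a male input for High Coverage 2, so array and sex cannot be told apart between these arrays.

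Olfactory receptors are odorant-binding G protein-coupled receptors, and a mature olfactory sensory neuron transcribes a single receptor gene of this very large family. A typical receptor gene has its coding sequence in 1 exon, with short noncoding exons and an intron upstream, so the start of transcription can lie kilobases before the coding sequence. Mammalian receptor clusters also hold many pseudogenes, copies whose reading frame is broken, some of which are still transcribed. RLM-RACE ligates an RNA oligonucleotide to decapped mRNA, so that its products begin at the 5′ end of the transcript and run towards the primer in the coding exon.

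Each pseudogene is called here by the number that ends its name. The numbers run to 51, number 20 does not occur, and 1 name has no number. The positions lay on 12 chromosomes of mouse build mm9. Chromosome 7 held 11 of them, chromosome 2 held 10, chromosomes 10 and 17 held 6 each and chromosome 19 held 4. Chromosomes 9, 11 and 14 held 3 each, chromosome 4 held 2, and chromosomes 1, 13 and 15 held 1 each. The plus strand carried 20 of them. No sequence is shown for the members, since their names match no entry of the sequence tables used here and no genome of the build was used. For the same reason it was not tested whether their reading frames are broken. Markers of the tissue could not be checked, because the arrays tile receptor loci.

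Signal was read as the MAT score of the probes within 100 bp of the position. MAT scores a probe's brightness against that predicted from its sequence, on a natural log scale and relative to the other probes of the same array, so scores are not compared between arrays directly. The authors called regions separately, above a score of 2.52 on Stringent and above 2.53 and 2.99 on High Coverage 1 and 2. These thresholds stand for unlike MAT p-values of 1.75e-09, 1.72e-06 and 2.97e-07, so shares of called regions are not set at a like cutoff between arrays. Of the 51 pseudogenes, 47 had scored probes in the window, with a median of 36 probes, against 36 at the 48 named receptors nearest to them and 38 at all other named positions. Fewer than 20 probes were scored at 6 of the 47 pseudogenes, at 5 of the 48 nearest receptors and at 61 of 1032 other positions. The sources used here do not say how the positions were chosen, so they may depend on the probe signal. A rise at the position may then be a property of the list, and it carries no independent support. Members of 1 array are not replicates, and the exact 95% intervals (Clopper-Pearson) cover counting error only.

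The remaining 4 pseudogenes could not be read. Their positions are given as the table has them, and whether these entries are right was not tested. Pseudogene 6 stood at 5127964 of chromosome 14, before the first probe of that chromosome at 14909940, and 9885957 bp from the nearest named receptor, Olfr720. Pseudogene 37 stood at 50765958 of chromosome 15, whose first probe lay at 97916450, and it was 47260143 bp from Olfr288. Pseudogenes 38 on chromosome 4 and 43 on chromosome 2 lay within the tiled span, and their windows held 4 and 0 probes, none of them scored.

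Fewer of the unannotated pseudogenes had a Stringent region than of the receptors around them, while the High Coverage shares were close to each other. A Stringent region lay within 100 bp of 22 of 51 pseudogenes (43.1%, 29.3 to 57.8), against 61.7% of all 1085 named positions. The share was 32 of 48 nearest named receptors (66.7%, 51.6 to 79.6) and 647 of 1034 other positions (62.6%, 59.5 to 65.5). Among the 47 scored pseudogenes it was 46.8% (32.1 to 61.9), against 62.7% (59.7 to 65.7) of scored other positions, and these intervals overlap. High Coverage 1 had a region at 20 pseudogenes (39.2%, 25.8 to 53.9), beside 36.4% of all named positions. High Coverage 2 had one at 26 (51.0%, 36.6 to 65.2), beside 43.6% of all named positions. On both High Coverage arrays the pseudogenes' interval covers the share of all other positions, at 36.3% and 43.2%.

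Taken by pattern over the arrays, 7 pseudogenes had a region on all 3 arrays (13.7%), against 17.3% of all named positions. Regions on no array were recorded for 13 (25.5%), the 4 unscored ones included, against 18.8% of all named positions. Stringent alone had a region at 10 (19.6%), against 28.3% of all named positions. High Coverage alone, on 1 or both arrays, had one at 16 (31.4%, 19.1 to 45.9), against 19.5% of all named positions, 14.6% (6.07 to 27.8) of the nearest receptors and 19.0% (16.6 to 21.5) of all other positions. Both High Coverage arrays without Stringent marked 11 pseudogenes (21.6%, 11.3 to 35.3), against 12.5% (4.73 to 25.2) of the nearest receptors and 9.19% (7.5 to 11.1) of all other positions. The remaining 5 pseudogenes, numbers 9, 21, 25, 44 and 47, had a Stringent region and 1 High Coverage region.

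**Figure D1:**
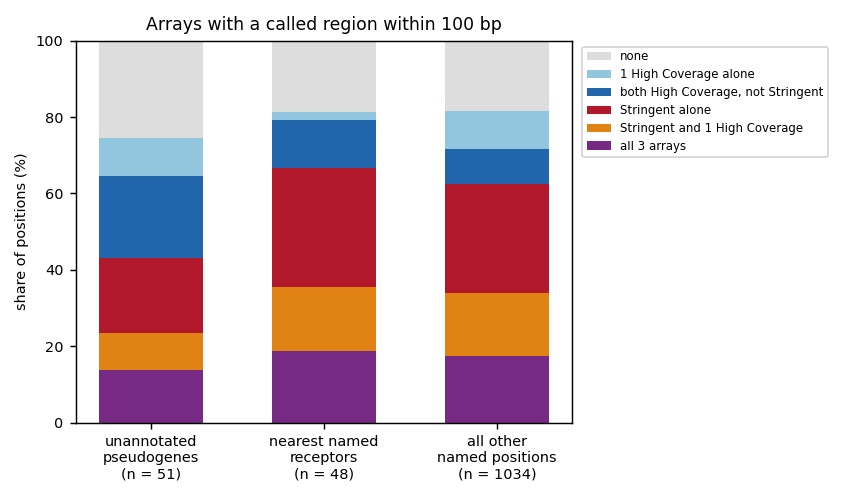
Share of positions, in percent, by the arrays that had a called region within 100 bp, for the 51 unannotated pseudogenes, the 48 named receptors nearest to them and the 1034 other named positions. The share with a region on High Coverage alone was 31.4% of pseudogenes, 14.6% of nearest receptors and 19.0% of other positions.

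Of the 22 pseudogenes with a Stringent region, 12 also had a High Coverage region (54.5%), and the share was 53.1% at the nearest receptors and 54.1% at all other positions. In the other direction the shares were further apart. Of the 28 pseudogenes with a High Coverage region, 12 also had a Stringent one (42.9%, 24.5 to 62.8). At the nearest receptors it was 17 of 24 (70.8%, 48.9 to 87.4), and at all other positions 350 of 546 (64.1%, 59.9 to 68.1).

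Scores, which use no threshold, were ordered likewise. The median of the highest score in the window was 1.99 on Stringent at the 47 pseudogenes, with a range of -0.985 to 20.5, against 3.30 at the nearest receptors and 4.30 at all other positions. On High Coverage 1 the medians were 1.65 at the pseudogenes, 1.43 at the nearest receptors and 1.43 at all other positions. On High Coverage 2 they were 3.22 at the pseudogenes, 1.76 at the nearest receptors and 2.05 at all other positions. Pseudogenes were thus below the other positions on the nested product and at or above them on the products without nesting. These differences of medians were small beside the range of single positions.

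As percentiles among the 2188086 scored probes of each array, the median pseudogene reached 92.8 on Stringent and 92.5 and 95.2 on High Coverage 1 and 2. The highest score of a window was ranked among single probes, which by construction raises the percentile of any window. All other positions had medians of 94.4 on Stringent and 91.3 and 92.4 on High Coverage 1 and 2. The difference of the Stringent percentile minus the mean High Coverage percentile had a median of -3.23 points at the pseudogenes (quartiles -5.07 and 12.5). It was 4.74 points at the nearest receptors and 4.25 points at all other positions. The Stringent percentile was the higher one at 22 of 47 pseudogenes (46.8%, 32.1 to 61.9), at 66.7% of the nearest receptors and at 65.4% of all other positions. With 1 array against 2, no test over arrays was run. Off chromosome 17 the median difference at 41 pseudogenes was 0.172 points, so its sign rested on the pseudogenes of that chromosome. At the 36 other named positions of chromosome 17 the median difference was also below 0, at -0.305 points. When the percentile was taken of the mean score in the window, the difference was -0.0058 points at the pseudogenes, 17.4 at the nearest receptors and 19.7 at all other positions.

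**Figure D2:**
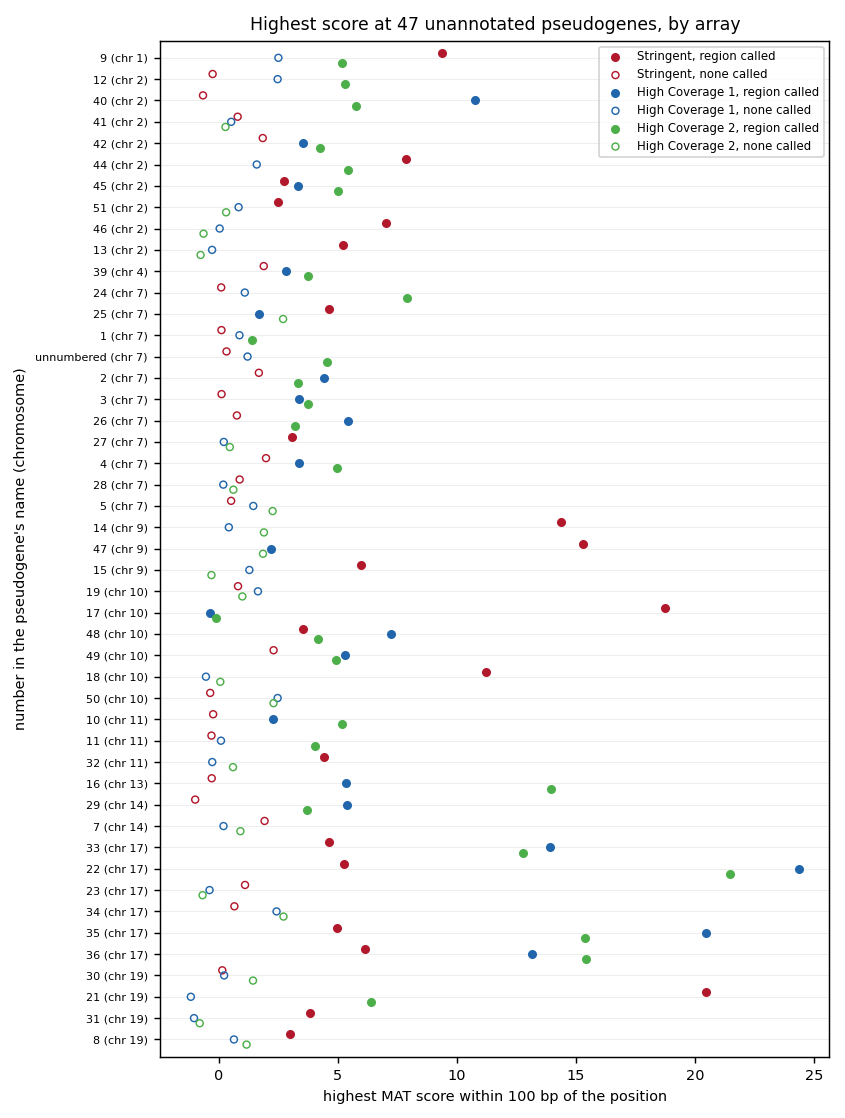
Highest MAT score within 100 bp of each of the 47 scored pseudogenes (one row each, with its chromosome, in chromosome order) on Stringent, High Coverage 1 and High Coverage 2, with filled points where the authors called a region. The 5 highest Stringent scores, up to 20.5, stood at pseudogenes that scored at most 2.19 on High Coverage 1, and the 4 highest High Coverage 1 scores stood at pseudogenes of chromosome 17.

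Across the 47 pseudogenes the Stringent scores did not follow the High Coverage scores. Pearson's r was -0.0852 with High Coverage 1 and -0.0237 with High Coverage 2, and Spearman's rho was -0.225 and -0.152. The High Coverage arrays followed each other, with r = 0.864 and rho = 0.722. At all other 1032 positions r was 0.0585, 0.231 and 0.657 for the same pairs of arrays. These are descriptions across positions that share the same arrays and the same probes, and they carry no test.

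The 7 pseudogenes called on every array were numbers 17, 22, 33, 35, 36, 45 and 48, and 4 of them lay on chromosome 17. Of the 6 pseudogenes on that chromosome, all on the minus strand, 4 had regions on all 3 arrays. The share was 5 of 36 (13.9%) among the other named positions of the chromosome, and 3 of 45 (6.67%) among pseudogenes on other chromosomes. The receptors of this stretch of chromosome 17 are linked to the major histocompatibility complex, the locus of the antigen-presenting molecules.

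Pseudogene 22, at 37397551 of chromosome 17, scored 5.28 on Stringent and 24.4 and 21.5 on High Coverage 1 and 2. It had the highest score of any pseudogene on both High Coverage arrays. Its probes above threshold ran to 91 bp downstream on Stringent, to 486 bp on High Coverage 1 and to 560 bp on High Coverage 2. Pseudogene 23 stood only 8183 bp from it on the same strand and scored 1.11 on Stringent and -0.383 and -0.675 on High Coverage 1 and 2. No array had a region at pseudogene 23, so 2 pseudogenes between the same pair of named receptors, Olfr97 and Olfr99, differed on every array.

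Pseudogene 35, at 37449021, scored 4.98 on Stringent and 20.5 and 15.4 on High Coverage 1 and 2. Its neighbour 34, 14520 bp away on the same strand, scored 0.661 on Stringent and 2.43 and 2.72 on High Coverage 1 and 2, with no called region. This was a second pair between the same named receptors, Olfr99 and Olfr102, of which 1 was called on every array and the other on none. Pseudogene 33, at 37345178, scored 4.64 on Stringent and 13.9 and 12.8 on High Coverage 1 and 2.

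Pseudogene 36, at 37697265, scored 6.13 on Stringent and 13.1 and 15.4 on High Coverage 1 and 2. The mean score of the 150 bp downstream minus that of the 150 bp upstream was -3.36 on Stringent and -5.42 and -8.97 on High Coverage 1 and 2. It was below 0 on every array at pseudogenes 7 and 9 too. The named receptor nearest to pseudogene 36, Olfr112, stood 4996 bp upstream on the same strand. At the other called pseudogenes of the chromosome, 22, 33 and 35, the same difference was positive on all arrays, from 2.27 to 14.97.

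Off chromosome 17, pseudogene 48 on chromosome 10 scored 3.54 on Stringent and 7.25 and 4.19 on High Coverage 1 and 2. Pseudogene 45 on chromosome 2 scored 2.74 on Stringent and 3.35 and 5.00 on High Coverage 1 and 2. Both reached their lowest percentile on Stringent, at 94.0 for pseudogene 48 and 93.5 for pseudogene 45. Pseudogene 17 on chromosome 10 was called on all arrays in another way. It scored 18.7 on Stringent and only -0.356 and -0.116 on High Coverage 1 and 2, and its High Coverage regions began 99 bp and 73 bp downstream, at the edge of the window.

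By the lowest of its percentiles over the arrays, the most even signal was that of pseudogene 9 on chromosome 1. It scored 9.37 on Stringent and 2.51 and 5.20 on High Coverage 1 and 2, which are percentiles of 96.4, 95.4 and 97.0. Only 13 probes of its window were scored, and High Coverage 1 fell short of its threshold. Its downstream minus upstream difference was below 0 on all 3 arrays, at -1.61 on Stringent and -0.841 and -2.22 on High Coverage 1 and 2. Pseudogene 49 on chromosome 10 followed the 4 of chromosome 17 and pseudogenes 48 and 45 by this measure. It scored 2.31 on Stringent and 5.32 and 4.93 on High Coverage 1 and 2, and only its Stringent score missed the threshold.

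The pseudogenes with a Stringent region alone were numbers 8, 13, 14, 15, 18, 27, 31, 32, 46 and 51. The largest Stringent excess in percentile points was that of pseudogene 31 on chromosome 19, at 63.3. It scored 3.85 on Stringent and -1.03 and -0.795 on High Coverage 1 and 2. Pseudogene 13 on chromosome 2 followed, with 5.21 on Stringent and -0.275 and -0.759 on High Coverage 1 and 2. Pseudogene 18 on chromosome 10 scored 11.2 on Stringent and -0.533 and 0.0701 on High Coverage 1 and 2. The highest scores of pseudogenes 31, 13 and 18 stood at percentiles 23.6, 59.4 and 47.7 of single probes on High Coverage 1. On High Coverage 2 they stood at percentiles 38.2, 39.8 and 70.6. The medians of all probes were -0.486 and -0.530 on High Coverage 1 and 2.

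The highest Stringent score of all pseudogenes belonged to number 21, on chromosome 19. It scored 20.5 on Stringent and -1.17 and 6.40 on High Coverage 1 and 2. The last of these came with a called region and the middle one did not, and the gap of -79.2 percentile points between High Coverage 1 and High Coverage 2 was the largest among the pseudogenes. Pseudogene 47 on chromosome 9 scored 15.3 on Stringent and 2.19 and 1.86 on High Coverage 1 and 2. Pseudogene 14, on the same chromosome, scored 14.4 on Stringent and 0.427 and 1.90 on High Coverage 1 and 2. Pseudogenes 47 and 14 were chosen after their values were seen.

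Both High Coverage arrays had a called region, and Stringent had none, at pseudogenes 2, 3, 4, 10, 16, 26, 29, 39, 40, 42 and 49. Their Stringent scores ran from the -0.985 of pseudogene 29 to the 2.31 of pseudogene 49, beside a threshold of 2.52. A missing Stringent region therefore did not mean that no array had signal. On Stringent itself, these scores ran from below the median single probe to under the threshold. High Coverage 2 alone marked numbers 1, 11, 12 and 24 and the unnumbered one. Pseudogene 16 on chromosome 13 scored -0.290 on Stringent and 5.35 and 13.96 on High Coverage 1 and 2. Pseudogene 40 on chromosome 2 scored -0.657 on Stringent and 10.7 and 5.78 on High Coverage 1 and 2. Pseudogene 29 on chromosome 14 had the lowest difference, at -62.5 percentile points, with scores of -0.985 on Stringent and 5.40 and 3.73 on High Coverage 1 and 2. On Stringent the highest scores of pseudogenes 16, 40 and 29 stood at percentiles 74.8, 54.9 and 34.4 of single probes, whose median was -0.733.

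No array had a region at the scored pseudogenes 5, 7, 19, 23, 28, 30, 34, 41 and 50. Their highest scores ranged up to the 2.72 of pseudogene 34. Pseudogene 50 on chromosome 10, the nearest of all to a named receptor at 4830 bp from Olfr798, scored -0.355 on Stringent and 2.48 and 2.31 on High Coverage 1 and 2. It had no called region downstream within 10 kb on any array and 2 to 3 upstream on each.

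Around the position, the median score of the 50 bp just downstream was 1.15 on Stringent at the pseudogenes, against 2.25 at all other positions. In the next 50 bp it was 0.897 at the pseudogenes and 3.43 at all other positions, and from 100 to 150 bp it was -0.431 at the pseudogenes and 1.77 at all other positions. On High Coverage 2 the first 50 bp had a median of 1.95 at the pseudogenes and 0.399 at all other positions. On High Coverage 1 it was 0.748 at the pseudogenes and 0.124 at all other positions. From 100 to 150 bp the High Coverage 1 median was -0.558 at the pseudogenes and -0.210 at all other positions. On High Coverage 2 it was -0.631 at the pseudogenes and 0.0243 at all other positions. From 100 to 150 bp the median of the pseudogenes was thus below that of the other positions on all 3 arrays, while in the first 50 bp it was below on Stringent alone.

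**Figure D3:**
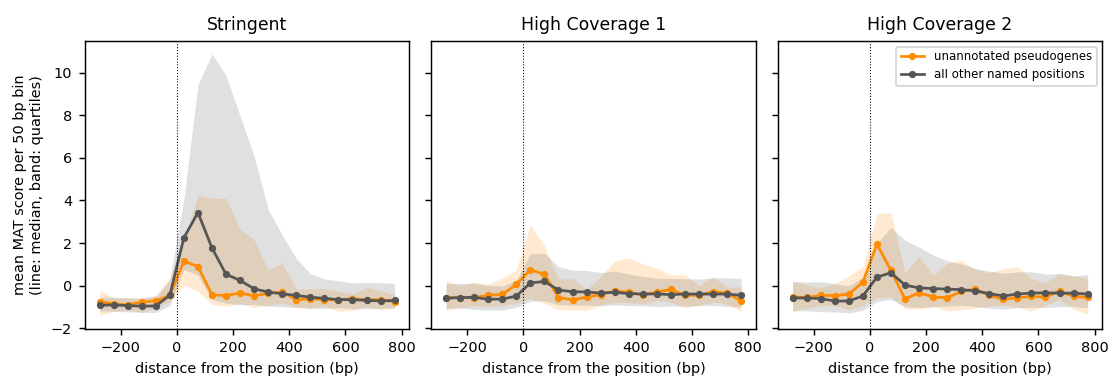
Mean MAT score per 50 bp bin against the distance from the position along the strand, as the median (line) and quartiles (band) over the unannotated pseudogenes and over all other named positions, with 1 panel for each array. On Stringent the pseudogenes' median peaked at 1.15 just downstream of the position and that of the other positions at 3.43 in the next bin.

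The score was higher in the 150 bp downstream than in the 150 bp upstream on Stringent at 38 of 45 pseudogenes with probes on both sides (84.4%, 70.5 to 93.5), against 94.5% of all named positions. On High Coverage 1 this held for 30 of 45 (66.7%), against 70.3% of all named positions. On High Coverage 2 it held for 29 of 45 (64.4%), against 74.6% of all named positions. The median difference on Stringent was 1.23 at the pseudogenes and 3.06 at all other positions.

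The extent of signal was taken as the end of the run of probes at or above the array's threshold, with gaps of up to 30 bp. On Stringent it had a median of 158 bp downstream over the 21 pseudogenes with a run (quartiles 91 and 384), against 209 bp over 637 other positions (quartiles 109 and 343). Without the pseudogenes of chromosome 17 it was 220 bp, above the other positions. On High Coverage 1 the median was 85 bp at 16 pseudogenes and 82 bp at 314 other positions. On High Coverage 2 it was 82.5 bp at 24 pseudogenes and 109 bp at 375 other positions. The quartiles of the pseudogenes and of the other positions overlapped on each array.

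The longest Stringent run was that of pseudogene 46 on chromosome 2, from -4 bp to 651 bp. Its highest scores within the window were 7.03 on Stringent and 0.0428 and -0.634 on High Coverage 1 and 2. The runs of pseudogenes 25 (502 bp), 15 (446 bp), 18 (395 bp) and 17 (389 bp) followed. The region the authors called over such a run could peak beyond the window, as at pseudogene 46, whose region scored 18.1, and at pseudogene 25, whose region scored 16.9 against 4.65 within the window. Pseudogene 15 on chromosome 9 scored 5.97 on Stringent and 1.29 and -0.302 on High Coverage 1 and 2.

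Farther downstream, from 100 bp to 10 kb, where the coding exon of a receptor gene would commonly lie, fewer pseudogenes had a Stringent region. This was 33 of 47 (70.2%, 55.1 to 82.7), against 90.5% of all scored named positions. It was 87.5% (74.8 to 95.3) of the nearest receptors and 91.5% (89.6 to 93.1) of all other positions. On High Coverage 1 it was 44 of 47 (93.6%), against 97.6% of all scored named positions, and on High Coverage 2 it was 42 of 47 (89.4%), against 95.0%. The first Stringent region began at a median of 1664 bp over 33 pseudogenes and 1600.5 bp over 944 other positions. Scored probes were not counted over these 10 kb, and their part in the shares downstream and upstream was not tested. From 750 to 800 bp downstream, scored probes lay at 36 of 51 pseudogenes and 864 of 1034 other positions. From 300 to 250 bp upstream, they lay at 29 pseudogenes and 798 other positions.

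Whether there was a Stringent region farther downstream went with the call at the position itself. Of the 22 pseudogenes with a Stringent region at the position, 19 had another one downstream (86.4%, 65.1 to 97.1), and of the 25 scored ones without, 14 had one (56.0%, 34.9 to 75.6). At all other positions the shares were 97.2% with and 81.8% without. The 14 pseudogenes with no Stringent region downstream were numbers 2, 7, 8, 10, 11, 16, 26, 29, 33, 35, 39, 40, 42 and 50. Numbers 33 and 35 of chromosome 17 and number 8 had a Stringent region at the position all the same.

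Upstream over the same distance the order was turned. A Stringent region lay upstream of 22 of 47 pseudogenes (46.8%, 32.1 to 61.9), against 35.0% of all scored named positions, 43.8% of the nearest receptors and 34.5% (31.6 to 37.5) of all other positions. On High Coverage 1 it was 38 of 47 (80.9%, 66.7 to 90.9), against 57.4% of all scored named positions, 64.6% (49.5 to 77.8) of the nearest receptors and 56.3% (53.2 to 59.4) of all other positions. On High Coverage 2 it was 32 of 47 (68.1%, 52.9 to 80.9), against 53.9% of all scored named positions, 64.6% of the nearest receptors and 53.3% of all other positions. More Stringent regions lay upstream than downstream at 14 of 47 pseudogenes (29.8%, 17.3 to 44.9), at 10.4% of the nearest receptors and at 10.8% (8.93 to 12.8) of all other positions.

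**Figure D4:**
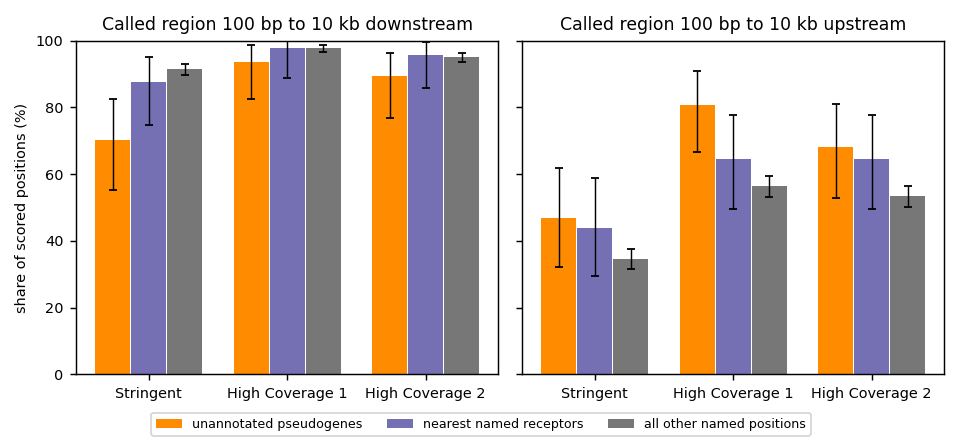
Share of scored positions, in percent, with a called region 100 bp to 10 kb downstream (left) or upstream (right) on each array, for the unannotated pseudogenes, the named receptors nearest to them and all other named positions, with exact 95% intervals as bars. On Stringent 70.2% of pseudogenes had a region downstream, against 91.5% of other positions, and 46.8% had one upstream, against 34.5%.

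Distances from the pseudogenes to named receptor promoters overlapped those of all other positions. The median distance to the nearest was 12840 bp over the 51 pseudogenes (quartiles 8965.5 and 20115.5), against 15953 bp over all other positions (quartiles 10856 and 23585). Within 10 kb there was one for 15 pseudogenes (29.4%, 17.5 to 43.8), against 19.5% (17.2 to 22.1) of all other positions. The nearest were Olfr798 at 4830 bp from pseudogene 50, Olfr112 at 4996 bp from pseudogene 36 and Olfr1160 at 6354 bp from pseudogene 42. Olfr549 stood 7274 bp from pseudogene 1 and Olfr102 stood 7514 bp from pseudogene 35. Among pseudogenes with scores the farthest from any named receptor was number 19 on chromosome 10, at 101348 bp from Olfr1357. It scored 0.814 on Stringent and 1.65 and 0.996 on High Coverage 1 and 2.

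The nearest named receptor was on the same strand for 37 of 51 pseudogenes (72.5%, 58.3 to 84.1), against 72.1% of all other positions. It lay upstream on that strand for 24 pseudogenes (47.1%, 32.9 to 61.5) and downstream for 13 (25.5%, 14.3 to 39.6). At all other positions the shares were 37.2% upstream and 34.9% downstream. A receptor upstream on the same strand is transcribed towards the pseudogene, and its part in the regions counted upstream was not tested. The other 14 nearest receptors were on the opposite strand, and 6 of those pairs pointed away from each other. No called region at a pseudogene touched the window of another named position on any array. This followed from the distances and is no separate result. No other named position stood nearer than 4830 bp, and the longest region measured at a pseudogene was 779 bp.

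The order of genes along the chromosome was read from the RefSeq gene table of build GRCm38.p6, which is not the build of the files, and only names, gene types, strands and neighbour order were taken from it. It matched 980 of the 1007 receptor names. Only matched names were used as neighbours, so an interval can run across an unmatched named position. For pseudogene 16 the interval ended at Olfr1368, 34319 bp away, beyond the nearer Olfr263-ps1 at 18057 bp. A matched named receptor stood on both sides of 46 pseudogenes. In the table, the interval between those neighbours held receptor genes that have no named promoter in all but 1 case. It held coding receptors alone for 15 pseudogenes, receptor pseudogenes alone for 13 and both for 17. Pseudogene 36 was the case with neither.

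These 46 pseudogenes fell in 43 intervals. A protein-coding receptor with no named promoter lay in 29 of them (67.4%), against 60 of 922 intervals without an unannotated pseudogene (6.51%). A receptor pseudogene lay in 27 (62.8%), against 178 of 922 (19.3%). Intervals with an unannotated pseudogene were wider, with a median of 45948 bp in the files' coordinates against 22700 bp. Among intervals at least that wide, a coding receptor with no named promoter lay in 16 of 22 with an unannotated pseudogene (72.7%) and in 31 of 157 without (19.7%). A receptor pseudogene lay in 16 of these 22 (72.7%) and in 68 of these 157 (43.3%). Either kind lay in all 22 and in 88 of the 157 (56.05%), so the contrast was smaller at like width. These counts describe neighbour order only, and whether a given position belongs to a gene of its interval was not tested.

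**Figure D5:**
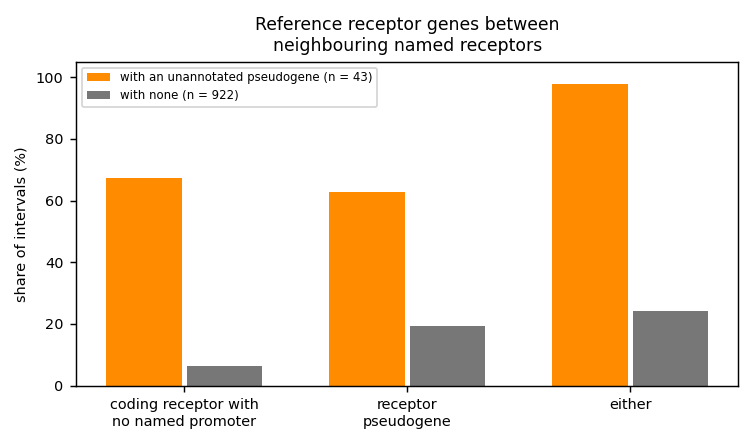
Share of intervals between neighbouring named receptors, in percent, that hold a protein-coding receptor with no named promoter, a receptor pseudogene, or either, in the RefSeq gene table, for the 43 intervals with an unannotated pseudogene and the 922 with none. Either kind lay in 97.7% of intervals with an unannotated pseudogene and in 24.1% of the others. Intervals with an unannotated pseudogene were wider. Among intervals at least as wide as their median, the shares for either kind were 100% and 56.05%.

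In all, 32 of the 115 coding receptors that have no named promoter in the list lay in an interval with an unannotated pseudogene, as did 35 receptor pseudogenes. For 26 of the pseudogenes the interval held exactly 1 such gene, which was protein-coding in 15 cases and a pseudogene in 11. Around pseudogene 17 the interval between Olfr1355 and Olfr8 held only Olfr1354, and around pseudogene 21 that between Olfr1446 and Olfr1448 held only Olfr1447. The interval of pseudogene 40 held only Olfr52, that of pseudogene 45 only Olfr1220 and that of pseudogene 31 only Olfr1458. All of these are annotated as protein-coding receptors. By contrast, pseudogenes 48, 49, 50 and 42 lay in intervals that held only a receptor pseudogene, which was Olfr764-ps1, Olfr766-ps1, Olfr797-ps1 and Olfr1159-ps1 in turn. In 12 cases the interval held a single coding receptor and the sequence table gave its strand. That strand was the one of the unannotated pseudogene in 11 of 12 cases, and the exception was pseudogene 39 with Olfr1341. Neighbouring receptors often share a strand, as the nearest named receptor did for 37 of 51 pseudogenes (72.5%). Whether these positions belong to those coding receptors was not tested.

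Called regions were also counted by kind of interval, beside 61.7% of all named positions on Stringent and 36.4% and 43.6% on High Coverage 1 and 2. With coding receptors alone, 8 of 15 pseudogenes had a region on Stringent and likewise 8 on each High Coverage array, and the median highest Stringent score was 2.50. With receptor pseudogenes alone, 4 of 13 had a region on Stringent, and 4 and 6 had one on High Coverage 1 and 2. The median highest Stringent score over the 12 scored ones was 1.37. With both, it was 8 of 17 on Stringent, and 7 and 9 on High Coverage 1 and 2, with a median Stringent score of 2.38. These groups are small and no test was run between them.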

How the data were processed

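The deposited score files give 1 MAT score per probe on a natural log scale. Per the file headers, the authors ran MAT on single arrays without a control, with its bandwidth set to 50, its maximum gap to 30 and its minimum number of probes to 5. They called regions array by array at a false discovery rate given as 0 percent in the headers, and the score of a region is their value. Coordinates are those of mm9 (submitters' processing notes). The sources used here do not say how the positions were chosen. The regions' fold values were not used.

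Probes at exactly 0 on all 3 arrays were left out, which left 2188086 of 2313448. Each position was widened by 100 bp on each side, with an overlap of at least 1 bp. Downstream regions have their near edge 100 bp to 10 kb from the position. The steps were tested on simulated data. The members and lists were chosen with earlier results of these data known. Pseudogenes named singly were set by rule: the 8 whose lowest percentile was highest, the 5 differences of Stringent minus High Coverage at either end, the 5 largest High Coverage 1 minus 2 differences, the 5 longest Stringent runs, the 5 nearest to and 3 farthest from a named receptor, and those with no scored probe. Others, and the examples of intervals, were chosen after their values were seen. Alternatives were other windows, overlaps, flanks, gaps, thresholds, scales and distances, and each High Coverage array left out. The tools were Python 3.11.15 with scipy 1.17.1, matplotlib 3.10.9, pandas 2.3.3 and numpy 2.4.6.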

Additional observations from a re-analysis of the deposited data

How the results depend on the processing

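For 17 results, 66 alternatives were computed, of which 50 stayed close to the reported value, 15 moved it and 1 turned its direction. The number of pseudogenes with a region on all 3 arrays was 12 with a window of 500 bp on each side. With the pseudogenes of chromosome 17 left out, chosen after seeing the data, that number was 3, the extent downstream was 220 bp on Stringent and 77 and 74 bp on High Coverage 1 and 2, and the Stringent minus High Coverage difference turned positive, at 0.172 points. With 1 High Coverage array left out, 9 to 10 pseudogenes had a region on every array. The number with a region on no array was then 13 to 18. The counts under other windows, downstream limits or array choices have no share over all named positions at the same setting beside them. They describe the pseudogenes alone. With the mean in place of the highest score in the window, the median score was 0.379 on Stringent and 0.250 and 0.978 on High Coverage 1 and 2. The extent downstream was 198 bp on Stringent with gaps of up to 100 bp, and 77.5 bp on High Coverage 2 at the lowest of the thresholds. The Stringent minus High Coverage difference was -3.13 to -2.15 points with 1 High Coverage array left out, -0.0058 points on the mean score and -0.0482 on a scale of medians and MADs. On this last scale it was 7.12 at the nearest receptors and 7.38 at all other positions. Named receptors within 5 kb numbered 2, and within 20 kb 37. The other alternatives stayed within 1.5 times the reported count or within a spread. They include a Stringent region downstream within 5 kb at 24 pseudogenes and before the next named position at 33, both chosen after seeing the data. The spread was the standard deviation of the values of the 2 High Coverage arrays. It also served for Stringent results, which have no spread of their own. For the scale of medians and MADs it was in percentile points, which is another unit. The cause of the moved values was not tested, beyond what wider or narrower limits and fewer arrays or members do by construction. No paired analysis was possible because Stringent has 1 array with no replicate number and no result comes from a test. With 1 Stringent array, the spread of the nested product between samples is unknown, and signal over background limits calls near the thresholds.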

Other observations

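Neighbouring unannotated pseudogenes on the same strand were called alike in some pairs and not in others. Pseudogene 1 and the unnumbered one, 29204 bp apart on chromosome 7, both had a region on High Coverage 2 alone. Pseudogenes 33 and 22, 52373 bp apart, were both called on all 3 arrays. Pseudogenes 10 and 11 on chromosome 11, 23880 bp apart, both had a High Coverage 2 region and no Stringent region, and High Coverage 1 had a region at pseudogene 10 alone. Their windows held only 10 and 9 scored probes. Pseudogenes 48 and 49 on chromosome 10, 28659 bp apart, were both called on the High Coverage arrays, and pseudogene 48 was also called on Stringent. Pseudogenes 24 and 25 on chromosome 7, 55927 bp apart, differed on each array. Pseudogene 24 scored 0.108 on Stringent and 1.10 and 7.93 on High Coverage 1 and 2, and pseudogene 25 scored 4.65 on Stringent and 1.70 and 2.71 on High Coverage 1 and 2.

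By chromosome, all 3 pseudogenes of chromosome 9 (14, 15 and 47) had a Stringent region and none had one on High Coverage 2. Of the 127 other positions of that chromosome, 92 had a Stringent region and 64 a High Coverage 2 region. Of the 11 on chromosome 7, 2 had a Stringent region, 5 a High Coverage 1 region and 7 a High Coverage 2 region, with 0 on all 3 arrays. Of the 213 other positions there, 119 had a Stringent region, 83 a High Coverage 1 region and 93 a High Coverage 2 region, with 35 on all 3 arrays. Of the 4 on chromosome 19, 3 had a Stringent region, 0 a High Coverage 1 region and 1 a High Coverage 2 region. Of the 61 other positions there, 43 had a Stringent region, 14 a High Coverage 1 region and 23 a High Coverage 2 region. These counts are small and were chosen after their values were seen.

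Beside the unannotated entries, 3 named positions carry a receptor name with -ps in it. Of these, 2 had a Stringent region, 1 a High Coverage 1 region and 2 a High Coverage 2 region, beside 61.7%, 36.4% and 43.6% of all named positions on these arrays.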
